A study of Mus musculus with 56 samples.

Results

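Dbp, Tef and Hlf are the 3 PAR bZIP transcription factors, and Nfil3 (E4BP4) is a related basic leucine zipper factor. These 4 of the 53431 features measured in mouse front paws were chosen by symbol, with the FPKM differences of Dbp, Tef and Nfil3 between mice given an antibody against IL-6 and the other mice already known. Those differences are therefore given as a description and carry no test. All 4 genes entered the 14700 genes tested, and each had a mean above 1 FPKM (fragments per kilobase of transcript, scaled to the mapped fragments of a library) in every group.

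The PAR bZIP factors carry the output of the circadian clock to its target genes. The clock's activators, CLOCK and BMAL1 (encoded by Arntl), drive them through E-box sites, and their proteins switch on genes that hold a D-box in their control regions. Nfil3 binds the same D-box sites and represses them, is itself repressed by the REV-ERB receptors (Nr1d1 and Nr1d2), and is known to cycle opposite to Dbp in liver.

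The paws came from 56 male DBA/1 mice in a study of collagen-induced arthritis (CIA), an autoimmune joint disease raised by immunising with type II collagen from chicken on days 1 and 21. The immunised mice were injected intraperitoneally 2 times a week for 5 weeks from day 21, and RNA was taken on day 91, so no group was being dosed at that time. The groups were anti-IL-6 (clone MP5-20F3 at 10 mg/kg, 13 mice), anti-TNF (clone XT3.11 at 30 mg/kg, 13 mice), the combination of both antibodies at these doses (13 mice), an isotype control antibody (IgG1 at 30 mg/kg, 13 mice) and no CIA (no treatment, 4 mice). Each library is a separate mouse by the number in its title, and replicate numbers below follow the order of deposition. The sources used here give neither the hour at which paws were taken nor the age of the mice.

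Whole paws hold skin, muscle, fat, bone and, in disease, infiltrating blood cells. Markers of skeletal muscle, epidermis, fat, bone and neutrophils were all detected in every group, as the tissue label requires. The neutrophil markers summed to 52.4 to 2820 FPKM in anti-IL-6, 38.6 to 2776 in anti-TNF, 46.1 to 1231 in combination, 29.8 to 1323 in isotype and 27.2 to 58.3 in no CIA paws. In such mixed tissue, fewer cells of a type and less RNA per cell cannot be told apart. Depth, estimated from the steps between low values, was 40.1 to 54.9 M fragments per library, where M stands for mega.

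Dbp lies at chr7:45705088-45710203 on the plus strand of GRCm38, Tef at chr15:81802421-81826863 (plus), Hlf at chr11:90336536-90390895 (minus) and Nfil3 at chr13:52967209-52981073 (minus). Dbp overlaps Sphk2 and Tef overlaps the antisense gene Gm17597, each on the opposite strand, and whether strand was used in counting is not given. Sphk2 averaged 31.7, 31.0, 29.5, 30.2 and 31.5 FPKM in anti-IL-6, anti-TNF, combination, isotype and no CIA paws, so the gene sharing the Dbp locus was nearly level. Gm17597 averaged 0.201, 0.318, 0.420, 0.368 and 0.684 FPKM in the same groups, against means of 23.4 to 65.2 FPKM for Tef. Its highest library had 1.03 FPKM (isotype replicate 5). Its means were lowest and highest in the same groups as those of Tef. Whether reads of either gene entered the values of the other was not tested.

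The promoters of Tef and Nfil3 are shown because they hold letters that match sites through which the clock is known to reach this family. Whether anything binds at these matches was not tested. They are RefSeq sequences on GRCm38.p6, giving the 250 bases before the start site, 5′ to 3′ on the gene's strand. The 2 Tef stretches are chr15:81802423-81802672 (plus) and chr15:81811164-81811413 (plus), and that of Nfil3 is chr13:52981040-52981289 (minus). Capitals mark an E-box (CACGTG) in Tef and a ROR/REV-ERB half-site (AGGTCA, read here on the other strand as TGACCT) in Nfil3.
Tef start site 1: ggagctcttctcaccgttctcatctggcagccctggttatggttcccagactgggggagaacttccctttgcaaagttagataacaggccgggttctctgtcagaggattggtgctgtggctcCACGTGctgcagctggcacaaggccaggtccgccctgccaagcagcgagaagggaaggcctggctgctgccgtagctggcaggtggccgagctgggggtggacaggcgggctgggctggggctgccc
Tef start site 2: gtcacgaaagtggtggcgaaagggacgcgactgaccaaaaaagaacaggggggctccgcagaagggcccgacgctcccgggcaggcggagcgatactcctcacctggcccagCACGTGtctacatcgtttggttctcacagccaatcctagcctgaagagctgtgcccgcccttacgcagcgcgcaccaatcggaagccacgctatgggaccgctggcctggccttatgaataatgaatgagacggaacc
Nfil3: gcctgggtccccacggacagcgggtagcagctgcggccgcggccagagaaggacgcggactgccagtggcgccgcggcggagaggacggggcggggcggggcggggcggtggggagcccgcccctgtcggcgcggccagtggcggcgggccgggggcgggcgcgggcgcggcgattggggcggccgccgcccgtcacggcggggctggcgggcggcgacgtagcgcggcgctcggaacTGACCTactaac
The search covered 300 bases, 250 before to 50 after each start site, on both strands, and all 4 genes were matched. CACGTG was found in both Tef promoters, with its first base at −127 and −138 from the start site, and is held by 7.15% of all 32851 promoters. TGACCT was found in Nfil3 with its first base at −12, and 16.3% of all promoters hold it on either strand. The D-box (TTATGTAA, its reverse TTACATAA, or TTACGTAA) was found in none of the 4 genes' windows and is held by 1.06% of promoters. No window of Dbp or Hlf held any of the 3 motifs, which says only that these letters are not in those windows.

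Dbp, whose daily swing is wide in most tissues, had the largest coefficient of variation of the 4 genes in every group (33.5% to 59.6%). It measured 5.77, 14.5 and 42.8 FPKM (lowest, median, highest) in anti-IL-6 paws, 18.3, 35.4 and 63.3 in anti-TNF, 18.5, 59.9 and 114 in combination, and 35.6, 64.2 and 118 in isotype paws. The 4 no CIA paws had 112, 145, 64.9 and 88 FPKM. Every anti-IL-6 and every anti-TNF paw was below every no CIA paw, while 7 of 13 isotype paws and 10 of 13 combination paws were. Against the lowest isotype paw, 11 of 13 anti-IL-6 paws, 7 of 13 anti-TNF paws and 3 of 13 combination paws lay lower. The means were 18.0 ± 10.7 FPKM in anti-IL-6, 36.5 ± 15.4 in anti-TNF, 60.5 ± 28.6 in combination, 64.4 ± 22.1 in isotype (SD, n = 13 each) and 103 ± 34.3 in no CIA (SD, n = 4). The combination and isotype means differed by less than the spread within either group.

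Tef followed the same order of groups within a narrower span. It measured 14.5, 21.7 and 42.7 FPKM in anti-IL-6, 23.6, 31.1 and 44.0 in anti-TNF, 28.6, 40.6 and 56.9 in combination, and 28.0, 38.9 and 65.02 in isotype paws. The no CIA paws had 66.5, 77.2, 53.2 and 63.9 FPKM. No anti-IL-6 or anti-TNF paw reached the lowest no CIA paw, and 12 of 13 in both the combination and the isotype group stayed below it. Means were 23.4 ± 7.64, 32.2 ± 5.85, 41.7 ± 8.18 and 42.6 ± 9.76 FPKM in the anti-IL-6, anti-TNF, combination and isotype groups (SD, n = 13 each) and 65.2 ± 9.86 in no CIA (SD, n = 4). Only the combination and isotype means were closer than the spread within either group.

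Hlf, the least abundant member here, separated the no CIA paws more than it separated the antibodies. Its values were 1.11, 2.79 and 5.04 FPKM in anti-IL-6, 2.403, 3.10 and 4.00 in anti-TNF, 2.53, 3.72 and 5.14 in combination, and 2.48, 4.00 and 7.14 in isotype paws. The no CIA paws had 6.58, 8.00, 4.43 and 7.88 FPKM. All 13 anti-TNF paws, 11 of 13 anti-IL-6 paws and 10 of 13 paws in both the combination and the isotype group were below the lowest of these. Group means were 3.00 ± 1.11, 3.21 ± 0.46, 3.77 ± 0.84 and 4.01 ± 1.21 FPKM in the anti-IL-6, anti-TNF, combination and isotype groups (SD, n = 13 each) and 6.72 ± 1.66 in no CIA (SD, n = 4). The anti-IL-6 mean differed from the anti-TNF, combination and isotype means by less than the SD of either group compared. So did the combination and isotype means from each other.

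Nfil3, the repressor, ran the opposite way. It measured 8.98, 12.6 and 26.0 FPKM in anti-IL-6, 6.94, 10.1 and 15.4 in anti-TNF, 6.11, 7.96 and 13.9 in combination, and 4.76, 7.499 and 13.7 in isotype paws. The no CIA paws had 8.07, 5.13, 7.62 and 6.95 FPKM. All 13 anti-IL-6 paws and 12 of 13 anti-TNF paws were above the highest no CIA paw, against 5 of 13 combination paws and 4 of 13 isotype paws. Means were 14.9 ± 5.31, 10.4 ± 2.404, 8.90 ± 2.52 and 8.36 ± 2.64 FPKM in the anti-IL-6, anti-TNF, combination and isotype groups (SD, n = 13 each) and 6.94 ± 1.29 in no CIA (SD, n = 4). The anti-TNF, combination and no CIA means all lay within the isotype SD of the isotype mean, and only the anti-IL-6 mean lay outside it.

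**Figure D1:**
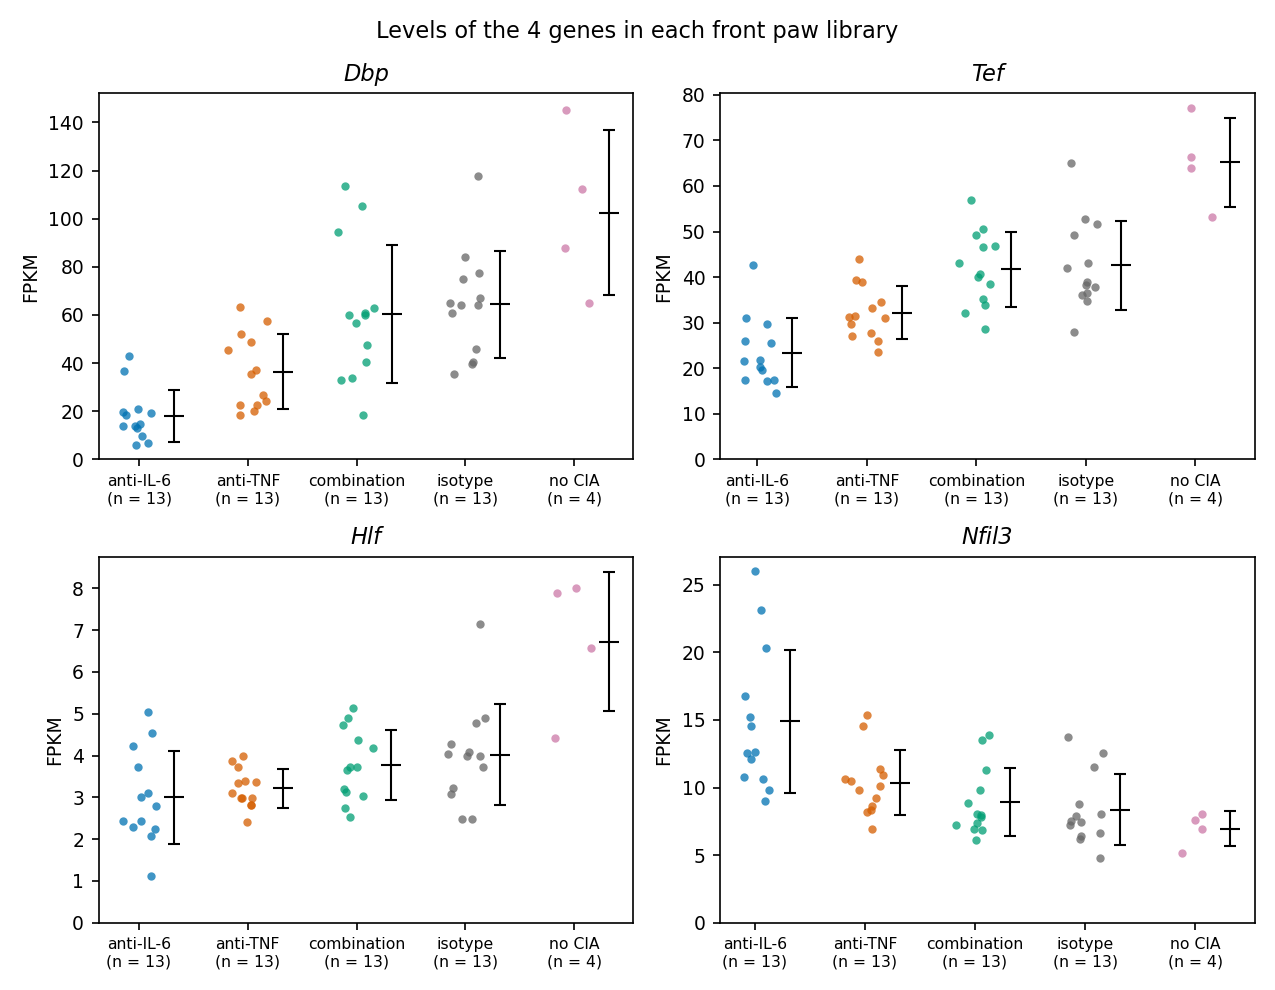
FPKM of Dbp, Tef, Hlf and Nfil3 (y axes) in each library, by group on the x axis; each point is 1 mouse, and the horizontal mark with its bar is the mean ± SD. Dbp and Tef are lowest in anti-IL-6 and highest in no CIA paws, Hlf is highest in no CIA paws, and Nfil3 is highest in anti-IL-6 paws.

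Because FPKM is scaled to transcript length, the 4 genes can be ranked within a library. Tef was above Dbp in 11 of 13 anti-IL-6 paws, 6 of 13 anti-TNF paws, 2 of 13 combination paws, 0 of 13 isotype paws and 0 of 4 no CIA paws. The ratio of Dbp to Tef had a median of 0.698 in anti-IL-6, 1.06 in anti-TNF, 1.30 in combination, 1.49 in isotype and 1.53 in no CIA paws. The order of these 2 activators was thus mostly turned round in anti-IL-6 paws and never in isotype or no CIA paws.

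Nfil3 exceeded its counterpart Dbp in 6 of 13 anti-IL-6 paws and in no library of any other group. The median ratio of Dbp to Nfil3 was 1.08 in anti-IL-6, 3.37 in anti-TNF, 6.75 in combination, 8.94 in isotype and 13.3 in no CIA paws. Across single libraries the ratio spanned 0.222 in an anti-IL-6 paw to 28.3 in a no CIA paw. Tef stayed above Nfil3 in 54 of 56 libraries, and Nfil3 above Hlf in 53 of 56.

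**Figure D2:**
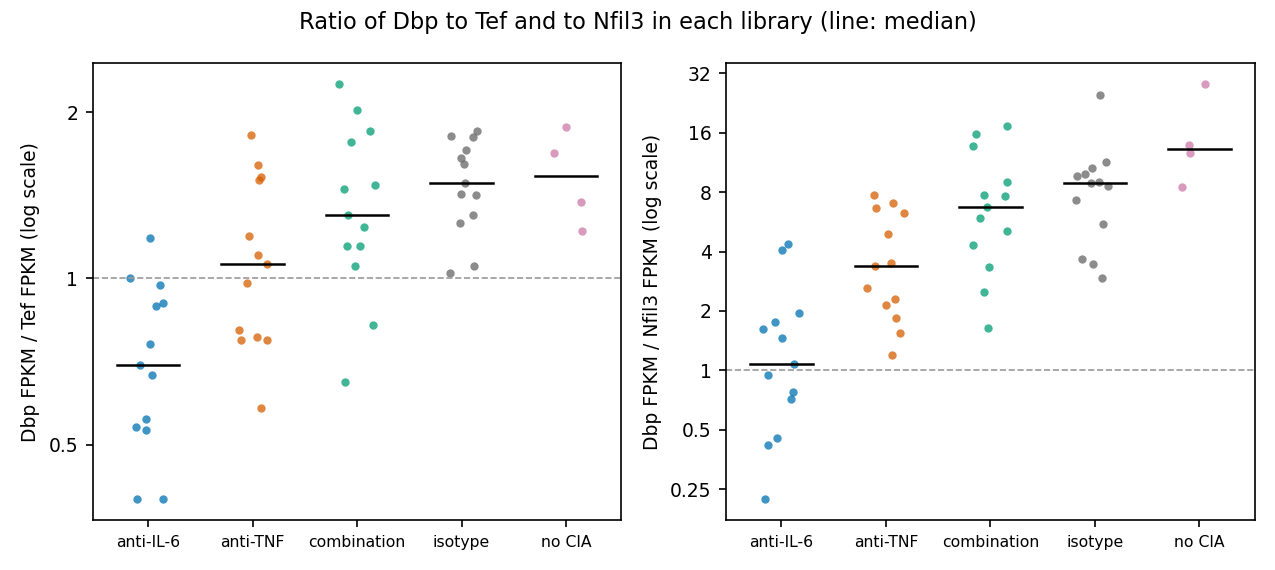
Ratio of Dbp to Tef (left) and of Dbp to Nfil3 (right) in each library, on log y axes, by group on the x axis; points are mice, the black line is the median and the dashed line marks equal levels. Median Dbp/Nfil3 is 1.08 in anti-IL-6 and 13.3 in no CIA paws.

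Some extreme libraries were shared between genes. Anti-IL-6 replicate 13 had the lowest Dbp, Tef and Hlf of its group (5.77, 14.5 and 1.11 FPKM) and the highest Nfil3 (26.0 FPKM), and these were also the extremes of all 56 libraries. Isotype replicate 5 had the highest Dbp, Tef and Hlf of its group (118, 65.02 and 7.14 FPKM) and the lowest Nfil3 (4.76 FPKM). No CIA replicate 2 likewise combined the highest Dbp, Tef and Hlf of its group with the lowest Nfil3. So in each of these mice the activators and the repressor stood at opposite ends of their group's range. Not all other ends of the groups were shared in this way. The highest Dbp, Tef and Hlf were in replicates 10, 13 and 11 of anti-TNF and in replicates 9, 10 and 3 of combination. Combination replicate 7, lowest of its group in Dbp and Tef, had 4.18 FPKM of Hlf, above the group's median of 3.72.

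The 6 comparisons without anti-IL-6 paws were tested with limma on log2(FPKM + 1), on which scale all differences below are given as first group minus second, with the standard error. Each of the 4 groups enters 3 of these comparisons, so they share libraries and are not independent. The same libraries were the other side of the anti-IL-6 comparisons known when the genes were chosen. The tests are therefore not free of that choice. Adjusted p-values are by the Benjamini-Hochberg method over all 14700 genes.

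The comparison of anti-TNF with no CIA paws asks how far treated immunised paws stood from paws of mice without arthritis. Of the 4 genes, 3 were lower in anti-TNF paws by limma, with differences of −1.52 ± 0.361 for Dbp (adjusted p = 0.0266), −1.004 ± 0.177 for Tef (adjusted p = 0.00294) and −0.85 ± 0.172 for Hlf (adjusted p = 0.00578). Over all tested genes, 0.551% were called, 0.476% higher and 0.0748% lower. Nfil3 differed by 0.50 ± 0.206 and was not called (adjusted p = 0.193). With each library left out in turn, Tef was called in 17 of 17 limma fits. Dbp was called in 14 of 17, its adjusted p being 0.161 without no CIA replicate 1, 0.233 without replicate 2 and 0.118 without replicate 4. Hlf was called in 15 of 17, with an adjusted p of 0.0819 without no CIA replicate 2 and 0.0926 without replicate 4. Its difference was −0.34 with a pseudocount of 10 and −1.32 with index run as a covariate, called in both limma fits (adjusted p = 0.00124 and 0.00519). Of all 14700 genes, these 2 fits called 32 and 3264. The fit with index run ties no CIA to the other groups through isotype replicates 4 and 7 alone.

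The tissue make-up of the paws moved with this comparison. The median log2 difference was 2.10 over the neutrophil markers (10 of 10 positive), 1.80 over the bone and cartilage markers (8 of 8 positive) and −1.01 over the muscle markers (12 of 12 negative). It was −0.31 over the epidermis markers (10 of 10 negative), −0.33 over the adipocyte markers (7 of 8 negative) and −0.49 over 4 hepatocyte genes (4 of 4 negative). With muscle and epidermis scores as covariates, the difference was −0.82 for Tef (limma adjusted p = 0.00322), −0.68 for Hlf (adjusted p = 0.00322) and −1.37 for Dbp, which was then not called (adjusted p = 0.0931). The Nfil3 difference was then 0.28 (adjusted p = 0.739). The part of neutrophil, bone and fat content in these differences was not tested. The index numbers in the titles were cut here into 5 stretches, called runs. Anti-TNF and no CIA paws shared none of these runs, so no within-run value could be had.

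Isotype paws set against no CIA paws show immunised mice without a blocking antibody. None of the 4 genes passed the limma threshold, where 0.156% of all tested genes did (0.15% higher and 0.0068% lower). Hlf differed by −0.63 ± 0.172 (adjusted p = 0.105), Tef by −0.62 ± 0.177 (adjusted p = 0.121), Dbp by −0.68 ± 0.361 (adjusted p = 0.325) and Nfil3 by 0.20 ± 0.206 (adjusted p = 0.593). Without isotype replicate 5, Hlf was called at −0.69 (adjusted p = 0.0335). With muscle and epidermis scores as covariates it was called at −0.51 (adjusted p = 0.0424), and the Nfil3 difference was 0.045 (adjusted p = 0.926). The marker lists moved in this comparison too, by a median of −0.69 for muscle (12 of 12 negative), 1.66 for neutrophils (10 of 10 positive), 1.79 for bone and cartilage (8 of 8 positive), −0.48 for adipocytes (7 of 8 negative) and −1.30 for hepatocyte genes (4 of 4 negative). The part of neutrophil, bone and fat content was not tested, and hepatocytes are not expected in a paw. Within the only run that held both groups, the 2 isotype paws (replicates 4 and 7) averaged 43.2 FPKM of Dbp and 13.1 of Nfil3, against 103 and 6.94 FPKM in the 4 no CIA paws. These 2 paws had the highest Nfil3 of the isotype group, and with index run as a covariate Tef (−0.77, adjusted p = 0.0381), Hlf (−1.01, adjusted p = 0.0171) and Nfil3 (0.85, adjusted p = 0.0314) passed the limma threshold. That fit called 2744 of the 14700 genes, 2057 higher and 687 lower. It ties no CIA to the other groups through these 2 paws alone.

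Combination paws against no CIA paws gave no call among the 4 genes either, with 0.156% of all genes called by limma (0.143% higher and 0.0136% lower). The differences were −0.84 ± 0.361 for Dbp (adjusted p = 0.470), −0.64 ± 0.177 for Tef (adjusted p = 0.142), −0.69 ± 0.172 for Hlf (adjusted p = 0.0758) and 0.30 ± 0.206 for Nfil3 (adjusted p = 0.569). Hlf was called without combination replicate 3 (adjusted p = 0.0376), without combination replicate 10 (adjusted p = 0.0450) and without no CIA replicate 3 (−0.85, adjusted p = 0.0464), and with muscle and epidermis covariates (−0.53, adjusted p = 0.0458). The marker lists differed by a median of −0.47 for muscle (12 of 12 negative), −0.28 for epidermis (10 of 10 negative), 1.68 for neutrophils (10 of 10 positive), 1.69 for bone and cartilage (8 of 8 positive), −0.55 for adipocytes (7 of 8 negative) and −1.19 for hepatocyte genes (4 of 4 negative). The part of neutrophil, bone and fat content was not tested, and hepatocytes are not expected in a paw. Dbp was higher than its no CIA mean in 2 of 13 combination paws, Tef and Hlf in 0 of 13.

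Anti-TNF against isotype asks for an effect of TNF blockade within immunised mice. Limma called 0% of the 14700 genes here, with 804 at an unadjusted p under 0.05, so none of the 4 was called. The widest of the 4 differences was that of Dbp, at −0.85 ± 0.248 (unadjusted p = 0.00124, adjusted p = 0.838), and all 13 anti-TNF paws lay below the isotype mean. Tef differed by −0.38 ± 0.121 (unadjusted p = 0.00256, adjusted p = 0.838), Hlf by −0.22 ± 0.118 (adjusted p = 0.928) and Nfil3 by 0.30 ± 0.141 (adjusted p = 0.899). Within runs 2, 3 and 5, which held both groups, the Dbp difference was −0.63, −1.57 and −0.44, and that of Nfil3 was 0.37, 0.57 and 0.33. Run 2 held 1 isotype paw. All 12 muscle markers were lower (median −0.31) and all 10 neutrophil markers higher (median 0.32) in anti-TNF than in isotype paws.

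Combination against isotype was the flattest comparison for this family in the fit without covariates. Limma called 0% of genes (850 at an unadjusted p under 0.05), and the 4 differences were −0.17 ± 0.248 for Dbp, −0.024 ± 0.121 for Tef, −0.056 ± 0.118 for Hlf and 0.091 ± 0.141 for Nfil3, each with an adjusted p of 1.00. The sign for Tef turned without any 1 of 5 libraries, reaching 0.028 without isotype replicate 5, and that for Hlf reached 0.00476 without the same paw. Within runs 2 to 5 the Dbp difference was 0.33, −0.89, −0.46 and −1.47, with 1 isotype or 1 combination paw in all but run 3. With index run as a covariate the differences were −0.45 for Dbp, −0.12 for Tef, −0.095 for Hlf and 0.22 for Nfil3, with no gene called. Of the muscle markers, 11 of 12 were higher (median 0.24) in combination paws.

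Combination minus anti-TNF, which asks what the IL-6 antibody adds to TNF blockade, was 0.68 ± 0.248 for Dbp, 0.36 ± 0.121 for Tef, 0.17 ± 0.118 for Hlf and −0.21 ± 0.141 for Nfil3. Limma called 0% of genes (160 at an unadjusted p under 0.05), and each of the 4 had an adjusted p of 0.999. The Dbp difference was 0.96, 0.69 and −1.03 within runs 2, 3 and 5, the last resting on 1 combination paw. All 12 muscle markers were higher (median 0.54) and 8 of 10 neutrophil markers lower (median −0.30) in combination than in anti-TNF paws.

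The anti-IL-6 comparisons are those with which the genes were chosen. Anti-IL-6 minus isotype was −1.90 ± 0.248 for Dbp, −0.86 ± 0.121 for Tef, −0.34 ± 0.118 for Hlf and 0.74 ± 0.141 for Nfil3. With all 12 muscle markers lower (median −0.70) and 8 of 10 neutrophil markers higher (median 0.40) in anti-IL-6 than in isotype paws, the fit with muscle and epidermis covariates gave −1.84 for Dbp, −0.75 for Tef, −0.28 for Hlf and 0.64 for Nfil3. Anti-IL-6 minus anti-TNF was −1.05 for Dbp, −0.48 for Tef, −0.12 for Hlf and 0.44 for Nfil3, so Hlf differed by about 1 standard error. Anti-IL-6 minus no CIA was −2.57 ± 0.361 for Dbp, −1.48 ± 0.177 for Tef, −0.97 ± 0.172 for Hlf and 0.95 ± 0.206 for Nfil3. There the marker lists differed by a median of −1.38 for muscle, 2.05 for neutrophils and 1.89 for bone and cartilage, and the part of neutrophil and bone content was not tested in any anti-IL-6 comparison.

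With both antibodies the 4 genes lay nearer to their isotype levels than with anti-IL-6 alone. Combination minus anti-IL-6 was 1.73 for Dbp, 0.84 for Tef, 0.29 for Hlf and −0.65 for Nfil3. All 12 muscle markers were higher (median 0.92) and 8 of 10 neutrophil markers lower (median −0.42) in combination than in anti-IL-6 paws, and with muscle and epidermis covariates the differences were 1.70 for Dbp, 0.71 for Tef, 0.25 for Hlf and −0.57 for Nfil3. The departure from additivity of the 2 antibodies (combination minus anti-TNF minus anti-IL-6 plus isotype) was 2.58 ± 0.350 for Dbp, 1.22 ± 0.172 for Tef, 0.51 ± 0.167 for Hlf and −0.95 ± 0.199 for Nfil3. Within runs 2, 4 and 5 the Dbp difference of combination minus anti-IL-6 was 1.85, 2.14 and 0.021, run 5 holding 1 paw of each group. That of anti-IL-6 minus isotype was −1.53, −2.60 and −1.49, each resting on 1 paw on one side (isotype in runs 2 and 4, anti-IL-6 in run 5).

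**Figure D3:**
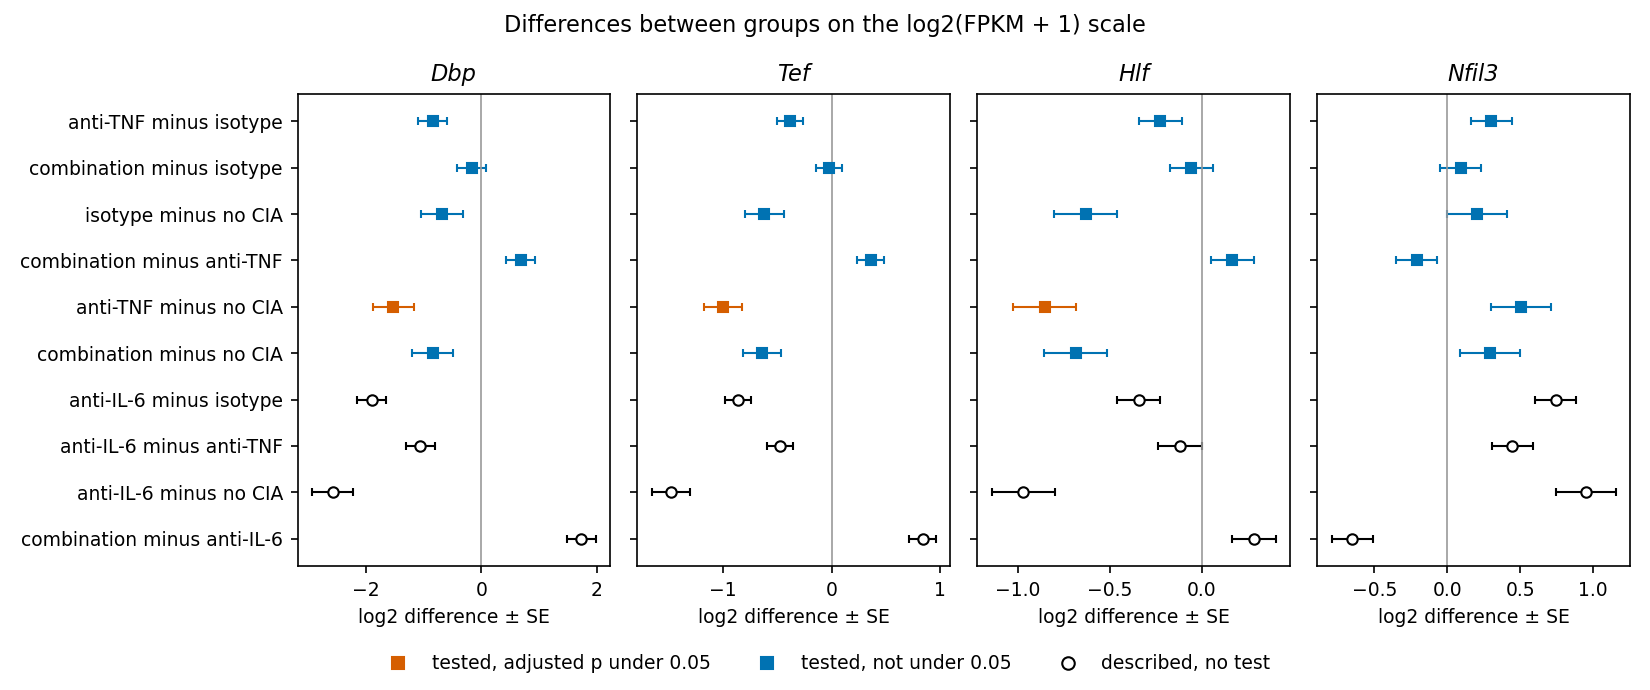
Differences between groups (x axes, log2(FPKM + 1) scale, first group minus second, ± SE from limma) for each of the 4 genes; squares are tested comparisons, orange where the adjusted p was under 0.05, and open circles are comparisons with anti-IL-6 paws, described without a test. The orange squares are Dbp, Tef and Hlf in anti-TNF minus no CIA.

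Group and mouse number cannot be told apart in this design. The number in each title runs in blocks by group, with medians of 8 in anti-IL-6, 21 in anti-TNF, 34 in combination, 49 in isotype and 57.5 in no CIA, and the group means of Dbp, Tef and Hlf ascend, and that of Nfil3 descends, in the same order. Only mice 20 and 2 stand outside their group's block. Mouse 20, labelled anti-IL-6, had the highest Dbp and Tef of that group (42.8 and 42.7 FPKM) with 9.84 FPKM of Nfil3. Mouse 2, labelled anti-TNF, had 37.2, 31.1 and 10.7 FPKM of Dbp, Tef and Nfil3, near its group's medians of 35.4, 31.1 and 10.1. So 1 of these mice was at the edge of its labelled group and 1 at its centre.

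At the borders between blocks, Dbp was 5.77 FPKM in mouse 14 (anti-IL-6) and 35.4 in mouse 15 (anti-TNF), 48.6 in mouse 27 (anti-TNF) and 56.5 in mouse 28 (combination), and 60.9 in mouse 42 (combination) and 35.6 in mouse 43 (isotype). Mouse 55 (isotype) had 60.8 and mouse 56 (no CIA) 112 FPKM. The steps were thus in the direction of the group means at 3 of the 4 borders. Mouse 14 (anti-IL-6 replicate 13) had the lowest Dbp of all 56 libraries, beside 13.7 and 14.5 FPKM in mice 11 and 13. Mouse 43 had the lowest Dbp of the isotype group.

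Within groups of 13, none of 16 relations of a gene to mouse number passed an adjusted p of 0.05 (permutation test, 100000 resamples). The strongest was Nfil3 in anti-TNF paws, with Pearson r = −0.511 (permutation p = 0.0797, adjusted 0.740) and Spearman rho = −0.764 (permutation p = 0.00345, adjusted 0.0552). Without the 2 mice farthest from the median number its r was −0.709, and with mice 2 and 20 left out it was −0.775 (permutation test, adjusted p = 0.0395). Dbp had r of 0.0825 to 0.450 with mouse number in the 4 groups.

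**Figure D4:**
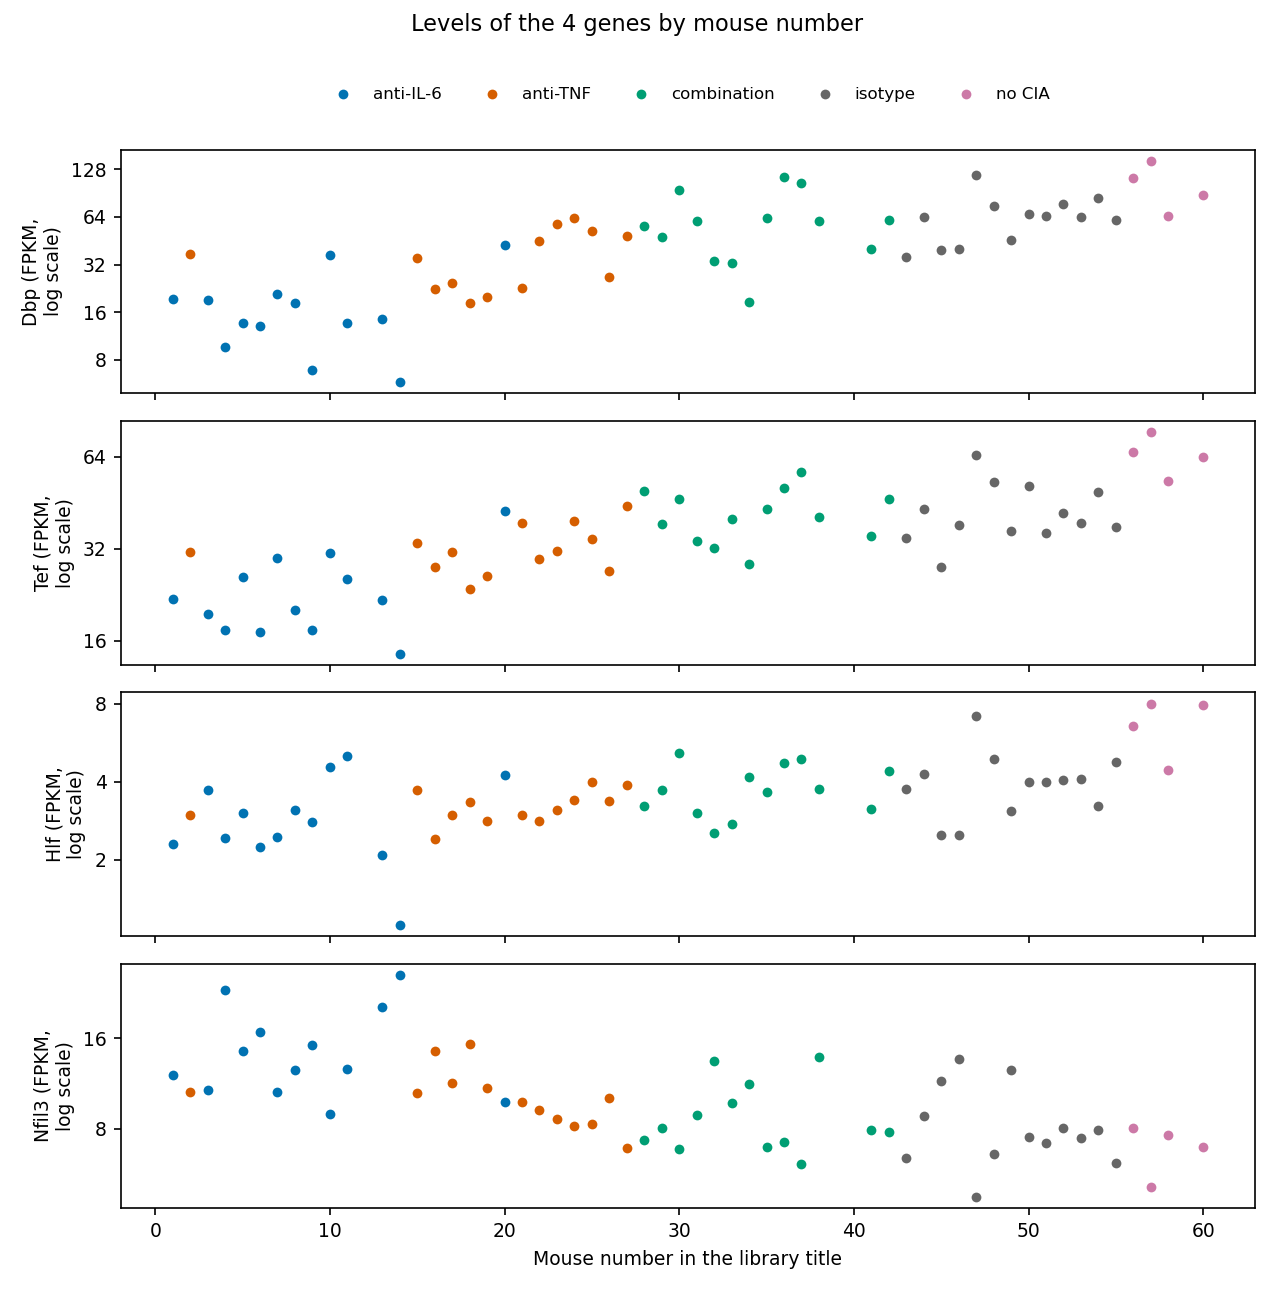
FPKM of the 4 genes (log y axes) against the mouse number in each title (x axis), coloured by group; each point is 1 library. Numbers run in blocks by group except for mouse 2 (anti-TNF) and mouse 20 (anti-IL-6). Dbp is 5.77 FPKM in mouse 14, the lowest of all libraries, and 35.4 in mouse 15.

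The spread among mice of 1 group was shared by the 4 genes, with the repressor opposite to the activators. Among 24 within-group relations, 18 passed an adjusted p of 0.05 by Pearson r and 16 by Spearman rho (permutation test, 100000 resamples), and the sign was positive for all 12 between PAR bZIP genes and negative for all 12 with Nfil3. The genes were known to belong to the clock when these relations were computed. How many other pairs of genes would pass was not computed. In the ranking of 13294 genes given below, Tef was at rank 2 and Nfil3 last for Dbp. For Hlf, however, Tef was at rank 538 and Dbp at rank 738.

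Dbp with Tef had Pearson r of 0.858 in anti-IL-6, 0.620 in anti-TNF, 0.846 in combination and 0.835 in isotype paws, and Spearman rho of 0.830, 0.703, 0.797 and 0.830 in the same groups (n = 13 each, permutation adjusted p of r 0.00156, 0.0357, 0.00187 and 0.00187). Without the 2 paws farthest from the Dbp median, r was 0.427 in anti-TNF and 0.708 to 0.747 in the other groups. Dbp with Nfil3 had r of −0.830, −0.809, −0.639 and −0.640 and rho of −0.907, −0.863, −0.764 and −0.319 in the anti-IL-6, anti-TNF, combination and isotype groups (permutation adjusted p of r 0.00187, 0.00196, 0.0273 and 0.0273). The isotype rho was not past the threshold (permutation adjusted p = 0.300), while without the 2 farthest paws r was −0.813 in isotype and −0.773 to −0.595 in the other groups.

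Tef with Nfil3 had r of −0.746 in anti-IL-6, −0.786 in anti-TNF, −0.698 in combination and −0.568 in isotype paws, with rho of −0.780, −0.791, −0.780 and −0.258 in the same groups, and passed the threshold in 3 of 4. The isotype relation rested on 2 paws, since r was −0.20 without the 2 farthest from the Tef median. For Tef with Hlf in isotype paws, r was 0.710 and rho 0.604 with all 13 and r was 0.267 without the 2 farthest. Hlf with Nfil3 ranged over the 4 groups between −0.880 in isotype and −0.518 in combination paws, and passed in 2 of 4 by r and by rho. Dbp with Hlf lay between 0.463 in anti-TNF and 0.755 in isotype paws and passed in 3 of 4 by r but in 1 of 4 by rho (0.478 in anti-IL-6, 0.522 in anti-TNF, 0.659 in combination and 0.560 in isotype paws).

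Only 2 of the 16 sets of paws sharing a group and a run held 6 or more libraries. In the 8 anti-IL-6 paws of run 4, r was 0.810 for Dbp with Tef and −0.872 for Dbp with Nfil3. In the 6 anti-TNF paws of run 5 these were 0.858 and −0.854. Centred on both group and run, 52 libraries gave r of 0.769 for Dbp with Tef, 0.629 for Dbp with Hlf and −0.692 for Dbp with Nfil3.

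**Figure D5:**
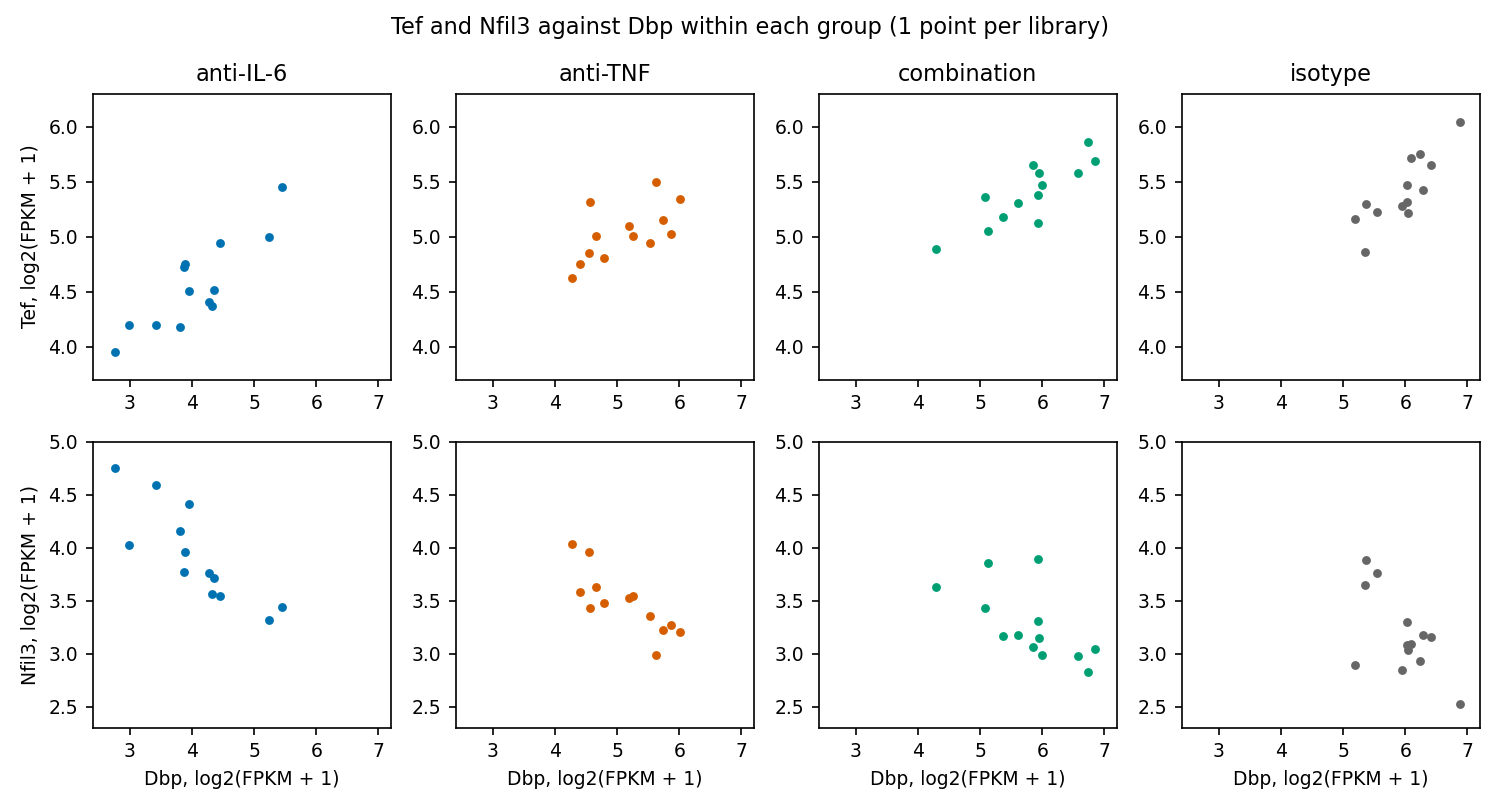
Tef (upper row) and Nfil3 (lower row) against Dbp, all as log2(FPKM + 1), in the 4 groups of 13 paws; each point is 1 library. Tef is higher where Dbp is higher (r 0.620 to 0.858) and Nfil3 is lower (r −0.830 to −0.639).

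The genes were also set against tissue scores within groups, since muscle, skin, fat and neutrophil content vary between paws. None of 64 relations passed an adjusted p of 0.05 (permutation test). Hlf had r of 0.427 to 0.796 with the epidermis score. Tef had r of 0.173 to 0.712 with the muscle score. Nfil3 had r of 0.432 to 0.576 with the neutrophil score, −0.747 to −0.135 with epidermis and −0.664 to −0.101 with adipocytes. Without the 2 paws farthest from the median score, these Nfil3 ranges were 0.226 to 0.354, −0.518 to 0.320 and −0.591 to −0.381. Hlf had r of −0.679 to 0.018 with the neutrophil score. Dbp had r of −0.411 to −0.0791 with the neutrophil score.

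Among 13294 genes ranked by Pearson r of log2(FPKM + 1) centred on group means over the 56 libraries, those most like Dbp were the clock genes Per3 (0.882), Tef (0.799), Ciart (0.751), Nr1d2 (0.725) and Nr1d1 (0.683), with Hlf at rank 7 (0.605). Those most opposite were Nfil3 (−0.725), Npas2 (−0.646), which encodes a partner of BMAL1, Leo1 (−0.625), Tmem252 (−0.567) and Tmem26 (−0.567). Nfil3 thus ranked last of the 13294 genes for Dbp. These values share libraries and depth and carry no p.

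Tef was most like Dbp (0.799), Per3 (0.785), Bhlhe41 (0.777), Nr1d1 (0.737) and Nr1d2 (0.704). Hlf was most like Ciart (0.829), a clock repressor, and then Dst (0.811), Ell3 (0.803), Tns4 (0.800) and Sec22c (0.787), and ranked Tef only 538th and Dbp 738th. Nfil3 was most like Fbln2 (0.831), Adamts1 (0.799), Enc1 (0.798), Mest (0.793) and Rassf2 (0.792), and most opposite to Nr1d1 (−0.859) and Nr1d2 (−0.796), which encode its known repressors, and then to Lgi4 (−0.765), Nxph3 (−0.764) and Gstm1 (−0.762). The genes most like Dbp and Tef were thus all clock genes, while 4 of the 5 most like Hlf and all 5 most like Nfil3 were not on the clock list.

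In the list of 20 core clock and loop genes, 19 were tested. The counts below stand beside the 0.551%, 0.156% and 0.156% of all tested genes called in anti-TNF, combination and isotype minus no CIA. Against no CIA, anti-TNF paws had 2 of the 19 called higher, Npas2 (1.00, limma adjusted p = 0.00349) and Arntl (0.65, adjusted p = 0.0443), and 3 called lower, Per3 (−1.10, adjusted p = 0.00046), Per2 (−1.05, adjusted p = 0.00349) and Ciart (−1.38, adjusted p = 0.00578). Combination paws had Per3 (−0.82, adjusted p = 0.0199) and Per2 (−0.87, adjusted p = 0.0308) lower than no CIA, and isotype paws had Per2 (−0.97, adjusted p = 0.0108). Per2 and Per3 belong to the repressor arm of the clock and, like Dbp, are driven through E-boxes. No list gene was called in the other 3 tested comparisons, in which limma called 0% of all genes. The list's median log2 difference was −0.38 in anti-TNF minus no CIA, beside 0.032 over all tested genes.

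In anti-IL-6 minus isotype, given as a description, 12 of the 19 were negative, with a median of −0.13 beside 0.029 over all genes, and the widest differences were Nr1d1 (−0.84), Per3 (−0.77) and Nr1d2 (−0.73). Nr1d1 averaged 57.4 ± 23.0 FPKM in anti-IL-6, 80.9 ± 18.2 in anti-TNF, 96.5 ± 22.1 in combination, 97.9 ± 22.0 in isotype (SD, n = 13 each) and 109 ± 10.6 in no CIA paws (SD, n = 4). On the log2(FPKM + 1) scale, which understates differences of low genes, Dbp differed by more than any gene of the core list in that comparison. Dbp was chosen with its anti-IL-6 differences known, so this ranking is a description only. In anti-IL-6 minus no CIA the widest were Ciart (−1.56), Per3 (−1.45) and Npas2 (1.35).

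Genes reported as controlled by PAR bZIP factors or Nfil3, mostly in liver or lymphoid cells, gave no call. Of 12 on the list, 6 were expressed enough to test (Pdxk, Por, Alas1, Bcl2, Lmo2 and Cyp2b10). Limma called 0 of 6 in each of the 6 tested comparisons, where 0% to 0.551% of all tested genes were called. With shares so low, 0 of 6 says little about these genes. Their anti-IL-6 minus isotype differences, as a description, ran between −0.16 for Cyp2b10 and 0.10 for Pdxk, the kinase that makes active vitamin B6. Their median there was 0.025, beside 0.029 over all genes. Of 9 other bZIP relatives, 8 were tested and 0 were called in the 6 comparisons, which with the same shares says as little about them. The widest among them was Cebpd, at 0.94 in anti-IL-6 minus no CIA, again a description.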

How the data were processed

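RNA of 56 front paws was made into TruSeq stranded mRNA libraries and sequenced in pairs on a NovaSeq, per the labels' protocols. DESeq2 is named, with no version, in the submitters' processing notes. Aligner, genome build, annotation and strand setting were not given in the sources used here. Deposited values are FPKM by the authors, 1 column per library, a unit read from the values because no header states it. Of 53431 features, 52207 were paired with symbols, and coordinates come from GENCODE M21 (GRCm38).

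The 4 genes and all lists were chosen with earlier results of these data known, and groups come from the labels. Log2(FPKM + 1) of all 56 libraries entered 1 limma 3.58.1 fit in R 4.3.3 (a mean per group, trended and robust prior, 51 residual degrees of freedom). Genes with a mean of at least 1 FPKM in any group were tested, and adjusted p-values under 0.05 were called. This scale understates differences of low genes. Anti-IL-6 comparisons chose the genes and were not tested. The tested comparisons reuse the libraries of the other groups in them. P-values measure the spread between mice of 1 experiment. The fit was tested on simulated data. Relations used permutation tests in Python 3.11.15 with scipy 1.17.1.

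Named genes are the 4 members, the 5 most like each (for Dbp and Nfil3 also the 5 most opposite, clone names skipped), list genes called, and the 3 widest list differences in untested comparisons. Depth was estimated from steps between low values of single-exon genes, of which 70.3% to 77.2% were whole multiples within 0.05 of a step, so counts could not be rebuilt. No 2 libraries were identical. Index numbers in the titles were cut here into 5 stretches, called runs (39 to 44, 45 to 57, 58 to 70, 71 to 83 and 84 to 96). The titles mark no break at these cuts and name no batch. The alternatives were pseudocounts of 0.1 and 10, no filter, median-of-ratios scaling, covariates for index run or tissue scores, compared groups alone, and leaving out each library.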

Additional observations from a re-analysis of the deposited data

How the results depend on the processing

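In the tested comparisons, 685 of 708 alternative fits of the 4 genes kept direction and side of the threshold. Most of these fits leave out 1 library. In anti-TNF minus isotype, combination minus isotype and combination minus anti-TNF no gene was called without covariates, so the side of the threshold could hardly change there. In the untested comparisons with anti-IL-6, 741 of 748 fits kept direction and moved by less than the spread between replicates. With index run as a covariate, isotype minus no CIA was −0.77 for Tef, −1.01 for Hlf and 0.85 for Nfil3, anti-TNF minus no CIA was 1.29 for Nfil3, and combination minus no CIA was −1.10 for Hlf, all then called. Of all 14700 genes, the fit with this covariate called 2744, 3264 and 118 in these 3 comparisons. It also widened, with no change of call, Dbp in isotype minus no CIA (−1.17) and combination minus no CIA (−1.62) and Nfil3 in combination minus no CIA (1.06). In combination minus isotype it gave −0.45 for Dbp, −0.12 for Tef, −0.095 for Hlf and 0.22 for Nfil3, with no gene called. The same covariate put anti-IL-6 minus no CIA at −3.43 for Dbp, −1.33 for Hlf and 1.68 for Nfil3. In every comparison with no CIA, the fit with index run ties that group to the others through isotype replicates 4 and 7 alone. Muscle and epidermis covariates brought Hlf past the threshold in isotype minus no CIA (−0.51) and combination minus no CIA (−0.53), and ended the Dbp call in anti-TNF minus no CIA (−1.37). With them Nfil3 in combination minus no CIA was 0.12. A pseudocount of 10 gave anti-IL-6 minus no CIA of −0.36 for Hlf and 0.53 for Nfil3, and a departure from additivity of 0.17 for Hlf and −0.53 for Nfil3. It also shrank tested values of both genes by over 1.5 times without changing a call, as for Hlf in anti-TNF minus no CIA (−0.34, still called), isotype minus no CIA (−0.25) and combination minus no CIA (−0.28), and for Nfil3 there (0.26, 0.11 and 0.15). That pseudocount is larger than or near the levels of both genes.

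Leaving out libraries, combination minus isotype ranged from −0.071 to 0.028 for Tef, turning sign without combination replicate 5 (0.00415) or 7 (0.018) or isotype replicate 5 (0.028), 6 (0.00346) or 8 (0.000535), and from −0.097 to 0.00476 for Hlf. Isotype minus no CIA ranged from −0.79 to −0.55 for Hlf, combination minus no CIA from −0.85 to −0.60 for Hlf, and anti-TNF minus no CIA from −1.72 to −1.33 for Dbp and from −1.02 to −0.77 for Hlf. The causes of the other changes were not tested.

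The number of genes called moved more. Isotype minus no CIA had 23, against 66 with a pseudocount of 0.1, 5 with 10, 35 with no filter, 68 with median-of-ratios scaling, 2744 with index run, 65 with tissue covariates and 35 with the compared groups alone. It ranged from 0 to 59 with a library left out (59 without isotype replicate 5, 15 without isotype replicate 9, 8 without no CIA replicate 1 or 2, 0 without no CIA replicate 4). Anti-TNF minus no CIA had 81, against 32 with a pseudocount of 10 and 3264 with index run. Its range was 7 to 223 (223 without anti-TNF replicate 7, 168 without anti-TNF replicate 13, and 26, 20 and 7 without no CIA replicates 1, 2 and 4). Combination minus no CIA had 23, against 59 with a pseudocount of 0.1, 2 with 10, 36 with no filter, 35 with median-of-ratios scaling and 118 with index run. Its range was 0 to 50 (50 and 45 without combination replicates 3 and 10, 15 without combination replicate 1 or 6, 13 without combination replicate 4 or no CIA replicate 3, 0 without no CIA replicate 1, 2 or 4). Anti-TNF minus isotype had 2 with tissue covariates. Of the relations to mouse number, 1 passed without mice 2 and 20, and of those to tissue scores, 1 passed with a pseudocount of 0.1.

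No paired analysis was possible because the numbers of replicates only follow deposition and no number links mice of different groups. The 4 no CIA mice limit every comparison with that group.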
